A study of Homo sapiens with 4 samples.

Results

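The 10 genes described here are FOS, FOSB, FOSL1, FOSL2, JUN, JUNB, JUND, EGR1, MYC and IER3, which were taken by symbol from the 59652 genes of the count table. All 10 were found, and all 10 passed the filter on low counts that preceded the test across genes. RNA was sequenced from the hepatocellular carcinoma cell lines Huh7 and PLC (PLC/PRF/5), both unmodified, after 48 h in glucose-free medium with serum that had been supplemented with either 5 mM (low) or 25 mM (high) glucose. The question of the glucose experiment is which transcripts follow the glucose concentration in these cells. Each line at each concentration gave 1 library of rRNA-depleted RNA, so no condition had a replicate, and no difference given here has a replicate check. Each line is a single culture model of a liver tumour, and a difference between cultures cannot be told apart from a difference between glucose concentrations or between lines.

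Immediate early genes are transcribed within minutes of a growth factor, serum or stress signal, before any new protein is made, and their mRNAs are short-lived. Their products are largely transcription factors. Proteins of the FOS and JUN families pair through leucine zippers into the dimer called AP-1, in which a FOS protein needs a JUN partner, whereas JUN proteins can also pair with each other. MYC, which pairs with MAX, drives growth and ribosome production. In liver, JUN and MYC are known for their induction during regeneration and for their activity in hepatocellular carcinoma.

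The 4 libraries held between 16049686 (PLC, 25 mM) and 30279716 (PLC, 5 mM) reads counted on genes, and a count of 0 allows for up to 3 reads. The labelled cell type was checked on 14 hepatocyte markers. Huh7 had reads on all of them. PLC had 5449 and 3980 reads on ALB and 29691 and 51958 on AFP (5 and 25 mM), but at most 4 on TTR and FOXA2, and edgeR's quasi-likelihood test with Benjamini-Hochberg adjustment called 13 of the 14 lower in PLC. Among 12 markers of other cell types, 4 had at most 3 reads in every library. EdgeR tested 6 of the 12 and called 5 lower in PLC and 0 higher, where 21.8% of all tested genes were called lower. The leukocyte gene PTPRC had at most 5 reads in a library and the T-cell gene CD3E had 0 in every library. In contrast, Huh7 had 1504 and 1680 reads on the ductal keratin gene KRT19 (5 and 25 mM).

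Most members are short genes. The 10 members span a median of 3615 bases with a median of 2.5 separate exon blocks. Over the 23195 tested genes that lie at a single locus, the medians are 17707 bases and 6 blocks. FOSL2, with 24870 bases and 7 blocks, lies above both of these. JUN, JUNB, JUND and IER3 each form 1 exon block in the table. Exons of all transcripts were merged before blocks were counted, and the exons of single transcripts were not looked at.

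RefSeq's promoter windows on GRCh38.p14, from 250 bases before to 50 bases after the gene's start, covered 7 of the 10 members (FOS, FOSB, FOSL2, JUN, JUNB, JUND and EGR1). FOSL1, MYC and IER3 were not among them. The stretches below are printed because each holds a match to the letters of a known type of promoter element. They are given 5′ to 3′ on the gene's strand with the match in capitals. For JUN (chr1:58784098-58784142, minus strand) and JUND (chr19:18281660-18281704, minus strand) the capitals mark CCAAT and a match to TGANNTCA. This loose form covers the cAMP response element TGACGTCA and allows any letters at its middle bases. The matches here, TGACATCA in JUN and TGAGCTCA in JUND, are not TGACGTCA, and whether they act as such elements was not tested. A second stretch of JUND (chr19:18281803-18281832, minus strand) holds TGACGTCA itself. For EGR1 (chr5:138465367-138465411, plus strand) the capitals mark 2 CArG boxes, the sites that serum response factor (SRF) binds.
JUN: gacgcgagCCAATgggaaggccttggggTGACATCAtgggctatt
JUND: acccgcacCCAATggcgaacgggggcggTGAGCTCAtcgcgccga
JUND, second stretch: gccgcccccaTGACGTCAacccacaaggca
EGR1: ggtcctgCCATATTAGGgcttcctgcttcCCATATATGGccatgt

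FOS (chr14:75278783-75278812), FOSB (chr19:45467951-45467980) and JUNB (chr19:12791411-12791470), all on the plus strand, hold a TATA box (TATAAA) between 30 and 33 bases before the start, and JUNB also CCAAT. These elements are in capitals.
FOS: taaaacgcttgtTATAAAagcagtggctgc
FOSB: ggcgggtcccgggcaTATAAAtacaggctg
JUNB: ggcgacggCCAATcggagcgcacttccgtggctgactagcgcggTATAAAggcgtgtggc

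Both strands of the windows were searched for the same letters in all 35116 promoters. TGANNTCA was found in 2 of the 7 members with a window (JUN and JUND) and in 11.5% of all promoters, TGACGTCA in 1 (JUND) and 1.85%, and the CArG box in 1 (EGR1) and 1.29%. TATAAA was found in 3 and in 11.5%, and CCAAT in 3 (JUN, JUNB and JUND) and in 34.6%. The AP-1 site TGACTCA was found in 1 (FOSL2, starting 5 bases after the gene's start) and in 4.95%, and the EGR site GCGNGGGCG in 1 (EGR1) and in 9.43%. The E-box CACGTG (7.26% of all promoters) and the extended ETS site CCGGAAGT (4.14%) were found in 0 of the 7. This says only that these full letters are not in the windows. Shorter forms of the ETS site were not searched for. Every match to TGACGTCA is also a match to TGANNTCA. For every element the counts cover only these windows. Sites more than 250 bases before the start, such as any further CArG box, were not searched for. A match is a description of the sequence, and binding was not measured.

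Levels are given as FPKM, reads scaled to gene length and library total, so that genes can be compared. JUND, the JUN protein that is least dependent on growth signals, had the highest level of the 10 genes in every library, with 83.9 FPKM at 5 mM and 48.9 at 25 mM in Huh7 and 124 and 83.8 in PLC. MYC followed in Huh7 with 35.3 FPKM at 5 mM and 22.3 at 25 mM, but had rank 4 of the 10 in PLC at both concentrations. FOS and FOSB, the members with the strongest known response to acute signals, were near the bottom. FOSB in Huh7, with 0.270 and 0.245 FPKM, was the only member under 0.5 FPKM in both libraries of a line. The plot of levels by library shows this range of more than 2 orders of magnitude.

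**Figure D1:**
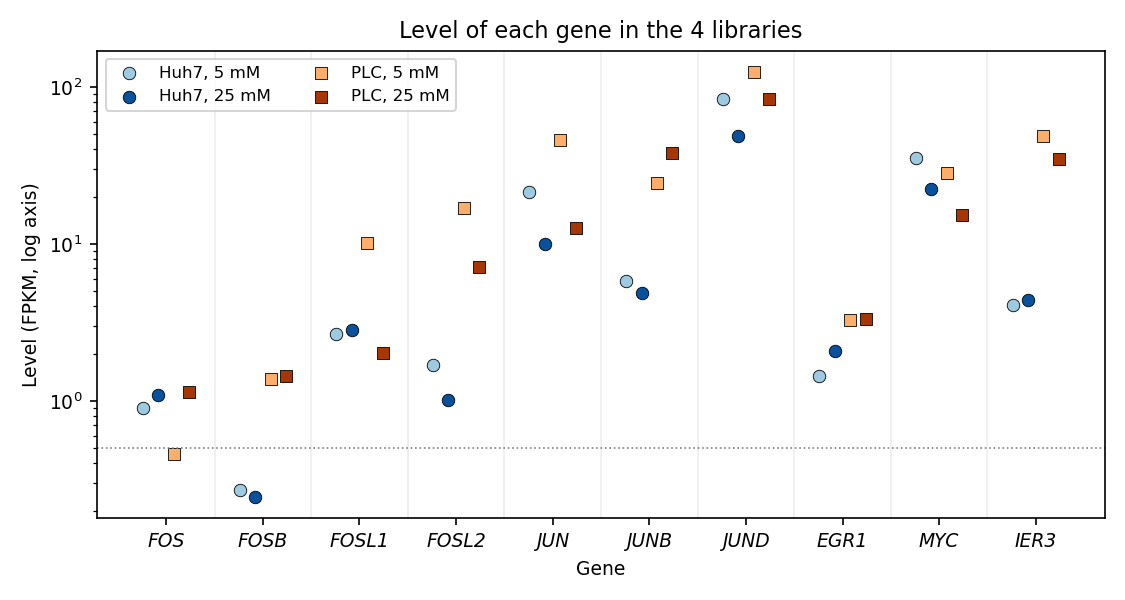
FPKM of each of the 10 genes (log axis) in the 4 libraries, with 1 point per library, circles for Huh7 and squares for PLC, light for 5 mM and dark for 25 mM glucose; the dotted line marks 0.5 FPKM. JUND is the highest gene in every library, and JUN, FOSL2 and MYC are lower at 25 mM in both lines.

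To ask which members differed with glucose, the ratio of 25 mM to 5 mM FPKM was taken within each line after 0.1 was added to both values, and the thresholds of the study were applied (ratios over 1.5 or under 0.67 at FPKM over 0.5). The FPKM threshold was read here as at least 1 of the 2 libraries. JUN, FOSL2 and MYC were past the lower threshold in both lines, and JUND was so in Huh7 and at the edge of it in PLC. FOSL1 was lower in PLC, whereas FOS and JUNB were higher there. With 1 added to FPKM in place of 0.1, the Huh7 ratio of FOSL2 was 0.744 and no longer past the threshold, and the PLC ratio of FOS was 1.47 and so no longer past it either. The count was 4 of 10 lower and 0 higher in Huh7, where 13.7% of 21864 genes were lower and 3081 genes higher. FOSB, under 0.5 FPKM in both Huh7 libraries, was not among the genes compared there or in both lines together. In PLC 4 of 10 were lower and 2 higher, where 17.0% of 21749 genes were lower and 26.2% higher. A setting added after the values were seen required 100 reads in the higher of the libraries. There each line kept its own 4 lower members, against 4.4% of genes in Huh7 and 11.8% in PLC. These were JUN, FOSL2 and MYC in both lines, with JUND in Huh7 and FOSL1 in PLC. JUNB was the 1 higher member in PLC, where 1989 of 12170 genes were higher. In Huh7 0 members were higher, against 709 of 12459 genes. Both lines together gave 3 of 10 lower and 0 higher, against 3.82% and 5.3% of the 18108 genes over 0.5 FPKM in both lines. The members were chosen with earlier results of these data known, so these counts are a description and not a test. In bulk RNA, fewer cells that express a gene and less RNA per cell cannot be told apart.

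JUN, the leading partner in AP-1, lies on chromosome 1 of hg38 from 58780791 to 58784047. It had 1486 reads (21.3 FPKM) at 5 mM and 982 (10.0 FPKM) at 25 mM in Huh7, and 4498 (45.6 FPKM) and 661 (12.6 FPKM) in PLC. Both 25 mM libraries were below both 5 mM libraries. The ratio was 0.472 in Huh7 (95% interval 0.433 to 0.509) and 0.279 in PLC (0.255 to 0.301). These intervals are exact Clopper-Pearson intervals of the share of reads in the 25 mM library, without the added 0.1, and cover counting error only. To look for what the lines had in common, edgeR's quasi-likelihood fit of 23217 genes took cell line and glucose as terms. JUN fell by 1.55 on the log2 scale (standard error 0.26, adjusted p = 0.0244 from edgeR), the only member of the 10 that this test called, where 0.314% of the genes were called lower and 0.0646% higher. This fit has 1 residual degree of freedom, and it treats the lines as if they were repeated cultures. Over 6 other settings, edgeR's or another tool's adjusted p of JUN lay between 2.56e-06 and 1.0, with 4 under 0.05.

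FOSL2 encodes a FOS-family protein without the strong activation domain of FOS, and lies on chromosome 2 from 28392448 to 28417317. Its reads were 260 and 217 (1.70 and 1.01 FPKM) in Huh7 and 3694 and 814 (17.0 and 7.08 FPKM) in PLC, at 5 and 25 mM. The ratio was 0.616 (0.493 to 0.713) and 0.419 (0.385 to 0.449). The shared log2 change was -1.10 (standard error 0.26, adjusted p = 0.103 from edgeR's test), and 3 of 6 other settings had an adjusted p under 0.05 (range 0.00845 to 1.0).

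MYC had 3463 and 3078 reads (35.3 and 22.3 FPKM) in Huh7 and 3909 and 1128 (28.2 and 15.3 FPKM) in PLC. Its 25 mM level was below both 5 mM levels in either line, with ratios of 0.633 (0.601 to 0.663) and 0.546 (0.509 to 0.582). The shared log2 change was -0.85 (standard error 0.22, adjusted p = 0.144 from edgeR's test), and 3 of 6 other settings had an adjusted p under 0.05 (range 0.0281 to 1.0). Exons of MYC share 194 bases with the antisense gene CASC11, which had at most 6 reads in a library.

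JUND, on chromosome 19 from 18279694 to 18281622, had 3459 and 2836 reads in Huh7 and 7263 and 2595 in PLC. The ratio was 0.583 (0.554 to 0.612) in Huh7 and 0.674 (0.644 to 0.705) in PLC, just outside the threshold. With the libraries scaled by edgeR's TMM method it was 0.620 in PLC, inside the threshold. The levels of Huh7 at 5 mM and of PLC at 25 mM were alike (83.9 and 83.8 FPKM). The shared log2 change was -0.75 (standard error 0.21, adjusted p = 0.178 from edgeR's test; range over 6 other settings 0.0235 to 1.0, with 1 under 0.05).

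FOSL1, on chromosome 11 from 65892049 to 65900573, encodes Fra-1, a FOS-family protein known for its activity in invasive tumour cells. It had the lowest ratio of any member, in PLC, where reads were 576 at 5 mM and 61 at 25 mM (10.1 and 2.01 FPKM, ratio 0.208, 0.151 to 0.260). In Huh7 reads were 107 and 160 (2.65 and 2.82 FPKM, ratio 1.06, 0.827 to 1.37), so the interval included 1. PLC at 5 mM were thus the one library with a high level, and the other three lay between 2.01 and 2.82 FPKM. The shared log2 change was -1.19 (standard error 0.51, adjusted p = 0.524 from edgeR's test). A different change in each line could not be tested, since 4 libraries leave no degree of freedom for it.

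FOS, on chromosome 14 from 75278826 to 75282230, went the other way in PLC. Its reads were few, 61 and 104 (0.896 and 1.09 FPKM) in Huh7 and 44 and 58 (0.456 and 1.13 FPKM) in PLC. The ratio was 1.19 in Huh7, with an interval that included 1 (0.875 to 1.69), and 2.22 in PLC (2.49 without the added 0.1, 1.65 to 3.77). The low value in PLC at 5 mM, under 0.5 FPKM, sets the ratio there. The shared log2 change was 0.70 (standard error 0.45, adjusted p = 0.779 from edgeR's test).

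JUNB, on chromosome 19 from 12791486 to 12793315, encodes a JUN protein that activates less strongly than JUN and can counter it. Its reads were 227 and 266 (5.80 and 4.83 FPKM) in Huh7 and 1357 and 1119 (24.5 and 38.1 FPKM) in PLC. The ratios lay on opposite sides of 1, at 0.835 (0.695 to 0.998) and 1.55 (1.44 to 1.69). With TMM scaling the ratio in PLC was 1.43 and so no longer past 1.5. JUNB shares 259 exon bases with HOOK2 on the opposite strand (74 to 329 reads in a library), and whether reads were counted by strand is not given in the sources used here.

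EGR1, a zinc finger factor on chromosome 5 from 138465479 to 138469303, had 96 and 196 reads in Huh7 (1.43 and 2.08 FPKM) and 312 and 166 in PLC (3.28 and 3.30 FPKM). The ratio was 1.42 in Huh7 (1.13 to 1.87), short of the threshold, and 1.004 in PLC (0.826 to 1.22). IER3, which encodes an early response protein that affects cell survival, lies on chromosome 6 from 30743199 to 30744548. It had 117 and 179 reads in Huh7 (4.05 and 4.41 FPKM, ratio 1.08, 0.856 to 1.38) and 1993 and 757 in PLC (48.8 and 34.9 FPKM, ratio 0.717, 0.658 to 0.780). Its exons share 359 bases with IER3-AS1 (4 to 24 reads in a library) and 85 with HCG20 (at most 4), both on the opposite strand. FOSB, on chromosome 19 from 45467995 to 45475179 within the span of ERCC1, had 32 and 41 reads in Huh7 and 230 and 128 in PLC (1.37 and 1.44 FPKM), with intervals that included 1 in both lines. For EGR1, JUNB, FOSB and IER3 the adjusted p of edgeR's shared test was between 0.904 and 0.987. In PLC the ratios of EGR1 and FOSB crossed to 0.925 and 0.968 with TMM scaling, and that of IER3 was 0.660, inside the lower threshold.

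**Figure D2:**
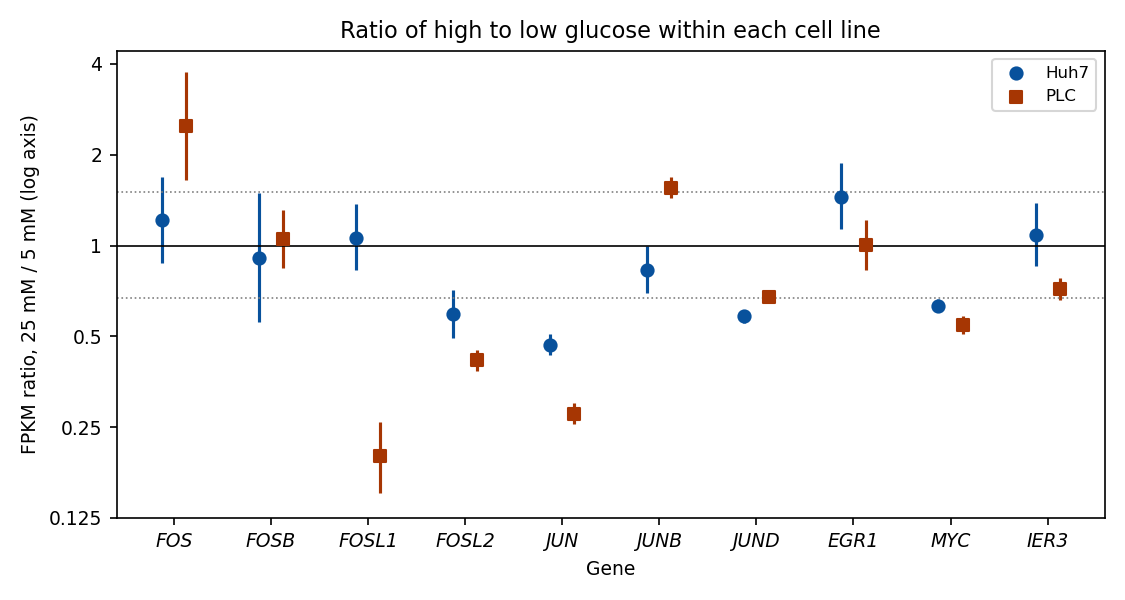
Ratio of 25 mM to 5 mM FPKM of each gene (log axis, without the added 0.1) in Huh7 (circles) and PLC (squares), from 1 library per condition; bars are 95% Clopper-Pearson intervals for counting error, and dotted lines mark 1.5 and 0.67. JUN, FOSL2 and MYC lie under 0.67 in both lines, FOSL1 only in PLC.

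The median log2 ratio of the members was -0.18 in Huh7, against 0.04 over all 21864 genes, and -0.52 in PLC, against 0.11 over 21749. Scaling by TMM moves log2 ratios by -0.04 (Huh7) and -0.12 (PLC) where nothing is added, and by less for low genes with 0.1 added. Hepatocyte markers moved in PLC too, with 6 of 11 over 0.5 FPKM past the higher threshold at 25 mM and 0 past the lower, and a summed level of 775 FPKM at 5 mM and 1678 at 25 mM. In Huh7 2 of 14 were higher and 1 lower, with sums of 6622 and 6288 FPKM. Their part in the members' ratios was not tested.

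The FOS and JUN families were then summed to describe which AP-1 genes made up the transcript pool. The 7 AP-1 genes together came to 117 FPKM at 5 mM and 68.9 at 25 mM in Huh7, a ratio of 0.591, and to 223 and 146 FPKM in PLC, a ratio of 0.655. The JUN family held between 87.0% and 95.3% of this sum in every library, and JUND alone between 55.7% and 72.0%. The JUN family sum had a ratio of 0.574 in Huh7 and 0.692 in PLC. The FOS family had nearly the same sum in both Huh7 libraries, 5.52 and 5.16 FPKM, whereas its sums in the PLC libraries were 28.9 and 11.7 FPKM.

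The shares of JUN and JUNB differed most clearly between the PLC libraries. In PLC JUN was 20.4% of the AP-1 sum at 5 mM and 8.65% at 25 mM, whereas JUNB was 11.0% and 26.1%, so that JUNB and JUN exchanged places. In Huh7 JUN was 18.3% and 14.6% and JUNB 4.98% and 7.01%, with JUN ahead at both concentrations. FOSL1 was the leading FOS-family gene in Huh7 (48.1% and 54.7% of the family), and FOSL2 in PLC (58.9% and 60.7%). FOS itself was 16.2% and 21.0% of the family in Huh7 and 1.58% and 9.72% in PLC. These are shares of transcript levels, and protein was not measured.

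**Figure D3:**
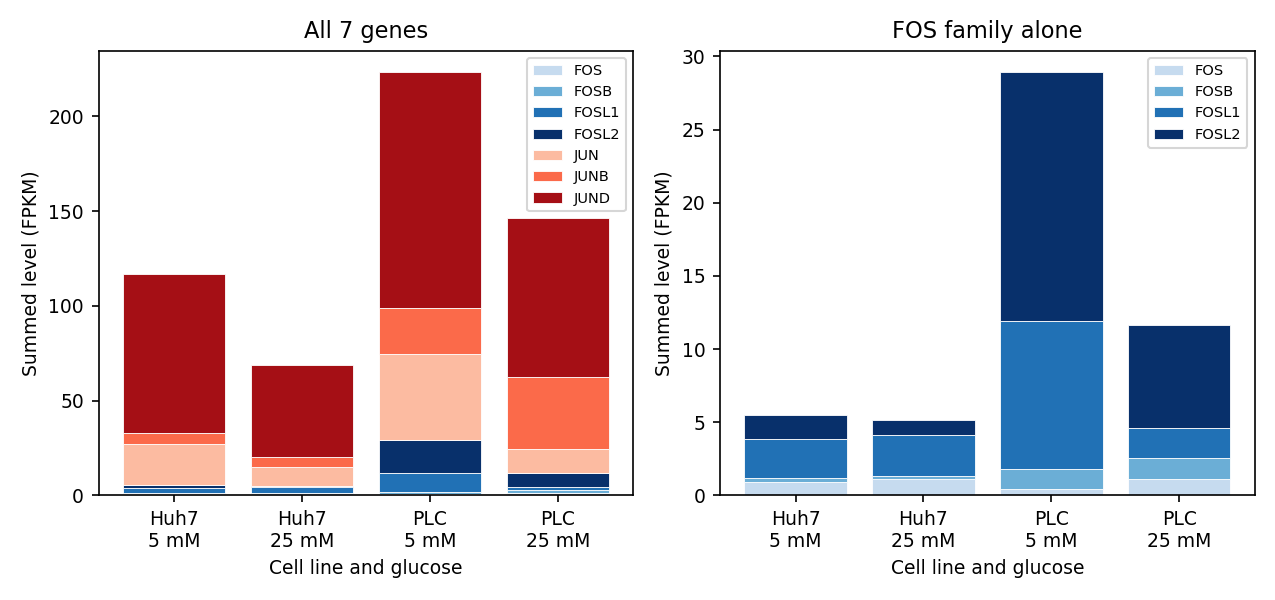
Summed FPKM of the 7 AP-1 genes (left) and of the FOS family alone (right), stacked by gene, for the 4 libraries, 1 bar per library. JUND is the largest block in every bar on the left, and PLC at 5 mM have the largest FOS-family sum, 28.9 FPKM, most of it FOSL2 and FOSL1.

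Between the lines, most members were higher in PLC. With the same thresholds, 7 of 10 were higher and 1 (FOS) lower in PLC at 5 mM. At that concentration 30.9% of genes were higher and 35.9% lower. At 25 mM 6 of 10 were higher and 0 lower, where 32.9% of 23824 genes were higher and 7678 genes lower. The lower value of FOS at 5 mM rests on 61 and 44 reads, and its ratio of 0.559 became 0.768 with 1 added to FPKM, which is not past the threshold. In the edgeR fit with glucose as a covariate, 7 of 10 were called higher in PLC and 0 lower. Of the 23217 genes, 21.1% were called higher and 21.8% lower. For this comparison the fit treats the 5 and 25 mM libraries of a line as if they were repeated cultures. It has 1 residual degree of freedom, so its adjusted p values rest on 4 libraries without replicates. With a fit that leaves glucose out, 4 of 10 were called higher, where 4386 of 23217 genes were called higher and 4426 lower. With DESeq2, 5 were called higher, where 3607 genes were called higher and 3553 lower. The median log2 difference of the members was 0.86, against -0.03 over all genes.

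IER3 stood furthest apart, with an edgeR log2 difference (PLC against Huh7) of 3.29 (standard error 0.30, adjusted p = 1.51e-06), and levels of 34.9 and 48.8 FPKM in PLC against 4.05 and 4.41 in Huh7. FOSL2 followed with 3.08 (standard error 0.27, adjusted p = 1.19e-06 from edgeR), then JUNB with 2.53 (standard error 0.29, adjusted p = 1.44e-05 from edgeR) and FOSB with 2.45 (standard error 0.40, adjusted p = 0.000256 from edgeR). For these 4 genes both PLC libraries lay above both Huh7 libraries, and the call held in all 6 other settings, which use the same libraries. EGR1 (0.93, adjusted p = 0.0425 from edgeR), JUN (0.73, adjusted p = 0.0363) and JUND (0.68, adjusted p = 0.0187) were higher by less, and their adjusted p reached 0.195, 0.295 and 0.178 in other settings. The JUN ratio of PLC to Huh7 was 2.13 at 5 mM and 1.26 at 25 mM. MYC (-0.43, adjusted p = 0.136 from edgeR), FOS (-0.43, adjusted p = 0.469) and FOSL1 (0.78, adjusted p = 0.244) did not pass the test.

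Genes with a pattern most like that of a member were looked for among those with at least 100 reads in every library, by the largest difference in log2(FPKM + 0.1) over the 4 libraries after each gene was centred. Of 9778 genes, CTH differed least from JUN (at most 0.13 in a library), followed by SLC3A2 (0.19) and AKNA (0.19). CTH had 22.03 and 9.27 FPKM in Huh7 and 43.7 and 11.0 in PLC. SNTB1 was closest to MYC (0.05), FLRT2 to FOSL2 (0.07) and GRPEL2 to JUND (0.08). For FOSL1 the closest of 9779 genes was CYP1A1 (0.22), with 22.2 and 28.1 FPKM in Huh7 and 78.2 and 21.8 in PLC. Among the members themselves, JUNB and FOSB were the nearest pair (0.50), then IER3 and FOSL2 (0.55) and JUN and FOSL1 (0.58). The named genes are by construction the closest of those compared, over only 4 libraries, so the likeness is a description only.

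The members were set beside other genes of the same response, from lists that had been written down with earlier results of these data known. Of 36 other immediate early genes, 32 could be tested for a shared glucose change, with a median log2 change of -0.50 against -0.01 over all genes. EdgeR called 3 lower at 25 mM and 0 higher, 14 had an unadjusted p under 0.05 (8.51% of all genes did), and DESeq2 called 3 lower and 0 higher. With at least 10 counts in every library edgeR called 2 of 31, and without the cell line in the fit 0 of 32. ATF3, a stress-induced factor that pairs with JUN, fell by 3.01 on the log2 scale (standard error 0.37, adjusted p = 0.00329 from edgeR), from 4.90 to 1.16 FPKM in Huh7 and from 40.3 to 3.04 FPKM in PLC. KLF4, a Krüppel-like factor, fell by 2.33 (standard error 0.36, adjusted p = 0.0155 from edgeR), and CCN1, a secreted matrix protein, by 2.04 (standard error 0.32, adjusted p = 0.0158 from edgeR). Other genes of this list went against them. The nuclear receptor gene NR4A1 had a ratio of 1.13 in Huh7 and 2.52 in PLC, and NR4A2 had 1.37 and 2.05. In PLC 16 of 31 were past the lower threshold and 2 past the higher, against 17.0% and 26.2% of all genes. In Huh7 7 of 30 were past the lower, against 13.7%, and 0 past the higher.

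**Figure D4:**
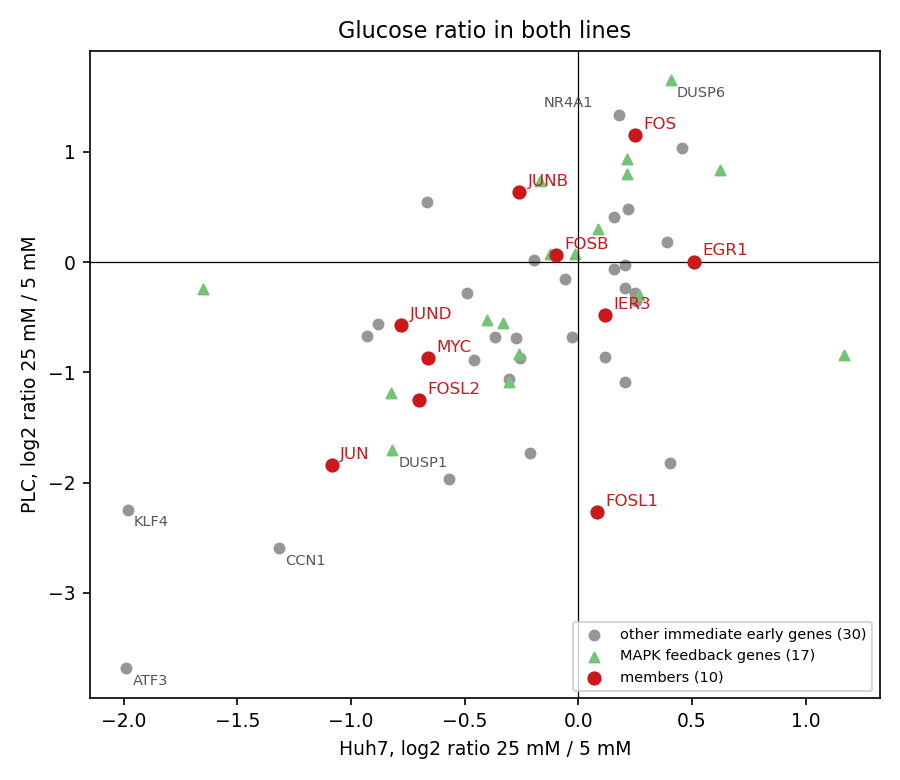
Log2 ratio of 25 mM to 5 mM (0.1 added to FPKM) in Huh7 (x axis) and PLC (y axis), 1 point per gene, for the 10 members (red), 30 other immediate early genes (grey) and 17 MAPK feedback genes (green) that reached 20 reads in both lines. JUN, FOSL2, MYC and JUND lie in the lower left with ATF3, KLF4 and CCN1, and FOSL1 lies far below 0 only on the PLC axis.

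Of 14 tested partners and competitors of AP-1, ATF3 included, edgeR called 3 lower and 0 higher. With at least 10 counts in every library 1 of 11 was called, and without the cell line in the fit 0 of 14. JDP2, a repressor that pairs with JUN, fell by 2.18 (standard error 0.35, adjusted p = 0.0186 from edgeR), and CREB5, a CRE-binding factor, fell by 1.71 (standard error 0.29, adjusted p = 0.0246 from edgeR). The small MAF genes MAFG (ratios 0.628 and 0.335) and MAFK (0.633 and 0.325) were past the lower threshold in both lines without passing the test (adjusted p = 0.0981 and 0.0899 from edgeR). The median log2 change of the list was -0.69.

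Upstream of the members, 22 kinases and factors of the MAPK and SRF routes had a median log2 change of -0.02. EdgeR, DESeq2 and limma each called 0 of them for glucose, with 1 at an unadjusted p under 0.05 by edgeR. SRF had ratios of 0.981 in Huh7 and 0.625 in PLC. Of 18 MAPK feedback genes, which are induced by the pathway and dampen it, edgeR called 0 (8 at an unadjusted p under 0.05), and DESeq2 and limma called 1 each. The phosphatase gene DUSP1 had ratios of 0.567 and 0.306 (log2 change -1.35, standard error 0.26, adjusted p = 0.0521 from edgeR). DUSP6, the ERK phosphatase gene, was 1.32 and 3.14, and SPRY1 was 1.54 and 1.79, so feedback genes lay on both sides of 1.

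Of 24 genes known as AP-1 targets, 13 had enough reads to be tested. The 11 that were not tested include the collagenase and stromelysin genes MMP1 and MMP3, with at most 4 reads in a library. EdgeR called 2 lower at 25 mM and 0 higher, with 8 at an unadjusted p under 0.05 and a median log2 change of -0.95, and 0 were called without the cell line in the fit. EREG, an EGF-receptor ligand, fell by 1.93 (standard error 0.21, adjusted p = 0.00168 from edgeR), with ratios of 0.267 and 0.304. HMOX1, the haem-degrading enzyme, fell by 1.76 (standard error 0.25, adjusted p = 0.0093 from edgeR), with ratios of 0.412 and 0.243. PLAUR, the urokinase receptor gene (1.69 and 2.85), was past the higher threshold in both lines without passing the test. Between the lines edgeR called 6 of the 13 targets higher in PLC and 3 lower. Over all genes tested, 21.1% were called higher and 21.8% lower. CXCL8 (log2 difference 5.58, adjusted p = 4.65e-09 from edgeR) and SPP1 (6.57, adjusted p = 2.24e-09) were higher in PLC, whereas CD44 (-3.46, adjusted p = 1.8e-06) was lower there. These factors and targets are also regulated by other pathways.

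Around MYC, edgeR called 0 of 12 genes of its network and 0 of 23 tested target genes for glucose, with 4 and 6 at an unadjusted p under 0.05. DESeq2 called 0 and 2, and limma 1 and 2, all of them higher at 25 mM. Median log2 changes were -0.14 and -0.21. MXD1, which encodes a MAX partner that opposes MYC, had ratios of 0.665 and 0.561, while its relative MXD4 had 1.54 and 3.68. The nucleolar gene NCL (0.967 and 1.08) and ODC1, the polyamine enzyme gene (0.846 and 0.663), were among the targets. E2F2 (2.20 and 3.53) and CDC25A (1.74 and 2.46) were the targets past the higher threshold in both lines. The lines differed in which MYC-family gene they used beside MYC. MYCN had 2253 and 5807 reads in Huh7 (40.3 and 73.8 FPKM at 5 and 25 mM, a level above that of MYC) and 0 and 2 in PLC. In Huh7 MYCN was thus higher at 25 mM, whereas MYC was lower there. At 5 mM MYCN was at least 1064-fold higher in Huh7 than in PLC, calculated against 3 reads in the PLC library. MYCL had 2 and 12 reads in Huh7 and 172 and 86 in PLC (log2 difference 4.46, standard error 0.59, adjusted p = 5e-05 from edgeR).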

How the data were processed

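Per the labels, rRNA was removed and directional libraries were built, and the submitters' processing notes name HISAT2, featureCounts and hg38; versions, the annotation release and strand settings are not given in the sources used here. The authors deposited raw read counts per gene for 4 libraries. Of 59657 lines, 5 that hold a broken entry (ANK2) were left out. The table lists 37 mitochondrial genes with 0 reads in total.

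FPKM was computed from the counts, the table's gene length and the library total, with 0.1 added for ratios. EdgeR 4.0.16 (filterByExpr by glucose, TMM, quasi-likelihood test, Benjamini-Hochberg adjustment over all genes tested) was fitted on counts with cell line and glucose as terms. With 1 library per condition and 1 residual degree of freedom, no replicate could be left out. DESeq2 1.42.0 and limma 3.58.1 were alternatives, as were RLE factors, a minimum of 10 counts per library or none, other added constants, scalings, filters and thresholds. The code was tested on simulated counts.

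The members and lists were chosen with earlier results of these data known. The genes named are the members, list genes called by edgeR or past the ratio thresholds in both lines (up to 4 and 3 per direction), the 3 genes most like a member, and overlapping genes. PTPRC, CD3E, KRT19, ALB, AFP, TTR, FOXA2, NR4A1, NR4A2, SRF, DUSP6, MMP1, MMP3, NCL and ODC1 fall outside this rule for glucose and were chosen after their values were seen. Promoter sequences are RefSeq's. Some genes of the lists are not reported here.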

Additional observations from a re-analysis of the deposited data

Results flagged for a closer look

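Of the 10 members, 4 had glucose ratios on opposite sides of 1 in the 2 lines. Whether the lines differ in this was not tested, since each line has 1 library per concentration. The log2 ratio in PLC minus that in Huh7 was -2.35 for FOSL1 and 0.89 for JUNB, and for JUNB alone the counting intervals excluded 1 in both lines. It was -0.60 for IER3 and 0.16 for FOSB. The interval of FOSL1 and of IER3 included 1 in Huh7, and that of FOSB included 1 in both. With TMM scaling FOSB lay under 1 in both lines, while EGR1 came to lie on opposite sides of 1 (1.39 in Huh7 and 0.925 in PLC).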

How the results depend on the processing

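No alternative reversed a direction that had been called. Of the 21864 genes compared in Huh7, 6068 were past the ratio thresholds. This count became 3092 with 1 added to FPKM, 3427 with FPKM over 0.5 in both libraries, 11199 with no filter, 3066 with ratios over 2 or under 0.5 and 1257 when the higher library had to hold 100 reads. For PLC, 9409 genes became 5982, 5917, 15409, 5253 and 3425 under the same settings in that order. Between the lines, 15690 genes at 5 mM became 8716 with FPKM over 0.5 in both libraries and 8053 with at least 100 reads, and 15507 at 25 mM became 8541 and 7578. With ratios over 2 or under 0.5, 1 of the 4 members stayed past the threshold in Huh7. With 1 added to FPKM, members past the thresholds were 3 in Huh7 and 5 in PLC (6 before), and in PLC 1 of the 2 higher members (JUNB) stayed. With FPKM over 0.5 in both libraries, and with 100 reads, 1 higher member stayed in PLC, and FOS was in neither case past the threshold between the lines at 5 mM. In PLC 60.7% of the genes past the thresholds were higher, and 51.3% with TMM scaling. The setting of 100 reads was added after the values were seen.

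Of the 88 genes and 1 member that edgeR called for glucose, the numbers became 526 and 3 with no filter, 27 and 0 with at least 10 counts in every library, 0 and 0 without the cell line in the fit, 194 and 4 with DESeq2 and 333 and 3 with limma. At an unadjusted p under 0.05, edgeR had 1975 genes and 5 members. JUN had adjusted p = 0.0692 with at least 10 counts in every library and 0.999964 without the cell line (range 2.56e-06 to 1.0). DESeq2 gave no adjusted p for FOS and FOSB. Between the lines, 9969 genes became 6340 with at least 10 counts in every library. Without glucose in the fit 9969 genes became 8812, and 7 members became 4. The cause of these moves was not tested. The libraries of a line were set against each other by the cell line term of the glucose fit. Each condition has 1 library, so no further block could be added and no replicate could be left out. Members with few reads, FOS and FOSB above all, have the widest counting intervals.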
